A study of Mus musculus with 20 samples.

Results

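Mitosis is carried out by a well-studied set of proteins, and 43 of their genes are described here in sorted mouse hematopoietic stem cells (HSC), the rare bone marrow cells that renew the blood. The genes were chosen by name, from what their proteins do, out of 21631 protein-coding genes on chromosomes 1 to 19 and X, and all 43 symbols were found. For each gene, peaks of 12 libraries were collected where they shared at least 1 bp with a window of 1 kb on either side of either annotated gene end. The libraries came from adult mice of 3 genotypes, all given poly(I:C), a synthetic double-stranded RNA that mimics viral infection. Control mice (WT) were Mx1-Cre-/-;mTORflox/flox, that is, they carried the floxed Mtor alleles without Cre. Knockout mice (KO) were Mx1-Cre+/-;mTORflox/flox, and KO MycHet mice were Mx1-Cre+/-;mTORflox/flox;c-Myc+/flox, with 1 floxed allele of c-Myc in addition. Mx1-Cre is driven by an interferon-inducible promoter that is active in blood cells and in other tissues, so the deletion is not limited to HSC. Chromatin immunoprecipitation sequencing (ChIP-seq) had 1 WT and 1 KO library each for H3K27ac (acetylated histone H3, found at enhancers and promoters in use), H3K4me3 (methylated histone H3, found at promoters in use) and MYC, a transcription factor. ATAC-seq, which maps open chromatin with a transposase, had 2 libraries of each of the 3 genotypes, from 50000 sorted cells each. Neither the number of mice behind a library nor whether the ATAC-seq replicates came from separate mice is stated in the labels. The RNA-seq samples of the series, 4 WT and 4 KO, were not analysed here, so nothing below is a measure of expression.

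Entry into mitosis is driven by the kinase CDK1 bound to cyclin A or B. The chromosomes are then condensed, attached to the spindle through kinetochores and held under the spindle checkpoint until the anaphase-promoting complex (APC/C) releases separase and the sister chromatids part. Genes of this programme are transcribed late in the cell cycle, and their promoters are known for 2 elements. One is the cell cycle homology region (CHR), bound by MuvB complexes: DREAM in resting cells, and MuvB with B-MYB and FOXM1 in dividing cells. The other is the CCAAT box, bound by NF-Y. MYC, with its partner MAX, binds the E-box CACGTG. Most HSC of an adult mouse are not dividing at a given time.

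The promoters below show these elements at genes on which the results turn: Cdk1 as a gene without a MYC peak, Ccnb1 and Aurka with a MYC peak in KO, Cdc20, Ncapd2 and Prc1 with one in both genotypes, Kif11 and Mybl2 with one in WT, and Ttk and Espl1 with an E-box and no MYC peak. Each is the 150 bases just before the annotated transcription start, 5′ to 3′ on the gene's strand, from RefSeq on GRCm38.p6 (the assembly also called mm10). Capitals mark matches, on either strand, to the CHR (TTTGAA or TTTAAA), the CCAAT box (CCAAT), the E-box (CACGTG) and the E2F sites TTTCCCGC and TTTGGCGC that lie wholly within the printed bases.
Cdk1 (chr10:69352913-69353062, minus strand): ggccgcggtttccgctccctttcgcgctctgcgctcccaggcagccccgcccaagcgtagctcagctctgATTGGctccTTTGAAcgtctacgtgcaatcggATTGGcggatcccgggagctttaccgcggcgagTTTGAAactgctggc
Ccnb1 (chr13:100786487-100786636, minus strand): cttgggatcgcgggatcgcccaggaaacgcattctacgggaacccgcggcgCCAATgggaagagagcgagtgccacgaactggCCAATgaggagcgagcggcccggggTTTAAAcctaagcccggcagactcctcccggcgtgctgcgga
Aurka (chr2:172370571-172370720, minus strand): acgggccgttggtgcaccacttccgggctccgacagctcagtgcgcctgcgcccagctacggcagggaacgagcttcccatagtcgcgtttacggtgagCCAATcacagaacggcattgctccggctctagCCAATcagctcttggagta
Cdc20 (chr4:118437344-118437493, minus strand): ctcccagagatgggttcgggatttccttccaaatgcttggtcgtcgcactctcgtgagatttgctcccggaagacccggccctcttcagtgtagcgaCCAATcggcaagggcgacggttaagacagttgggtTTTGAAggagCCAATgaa
Ncapd2 (chr6:125191587-125191736, minus strand): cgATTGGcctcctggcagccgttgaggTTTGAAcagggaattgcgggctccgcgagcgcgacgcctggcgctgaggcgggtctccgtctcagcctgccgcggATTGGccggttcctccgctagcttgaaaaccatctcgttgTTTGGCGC
Prc1 (chr7:80294301-80294450, plus strand): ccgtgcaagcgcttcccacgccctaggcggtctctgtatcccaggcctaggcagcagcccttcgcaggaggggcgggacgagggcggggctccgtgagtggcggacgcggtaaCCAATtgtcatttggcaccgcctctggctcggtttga
Kif11 (chr19:37376232-37376381, plus strand): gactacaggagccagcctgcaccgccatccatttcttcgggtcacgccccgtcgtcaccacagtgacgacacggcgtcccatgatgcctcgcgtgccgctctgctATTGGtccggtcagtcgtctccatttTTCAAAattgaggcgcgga
Mybl2 (chr2:163054485-163054634, plus strand): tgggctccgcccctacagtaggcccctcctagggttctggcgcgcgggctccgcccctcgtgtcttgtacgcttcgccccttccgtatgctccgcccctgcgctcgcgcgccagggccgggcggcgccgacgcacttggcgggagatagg
Ttk (chr9:83834539-83834688, plus strand): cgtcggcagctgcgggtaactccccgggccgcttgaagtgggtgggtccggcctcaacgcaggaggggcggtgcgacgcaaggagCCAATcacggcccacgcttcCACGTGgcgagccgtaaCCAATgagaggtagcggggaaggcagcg
Espl1 (chr15:102296143-102296292, plus strand): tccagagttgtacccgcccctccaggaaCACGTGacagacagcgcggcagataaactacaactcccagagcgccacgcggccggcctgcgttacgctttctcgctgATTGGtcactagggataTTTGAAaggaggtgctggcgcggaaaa

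Promoter windows of 300 bases, 250 before and 50 after the start, were at hand for 34 of the 43 genes. A CHR match was present in 24 of these 34 windows (70.6%), against 24.9% of 17274 protein-coding genes with a window and 18.7% of the 9059 of them with H3K4me3 in both genotypes. A CCAAT box was present in 26 windows (76.5%), against 39.6% in either reference set. Both elements together were found in 21 windows (61.8%), against 10.4% and 7.96%. CHR matches centred on the start, with a median first base at -17, and CCAAT boxes lay a little upstream, with a median of -61.5. The E-box was found in 2 windows (5.88%), against 8.01% of all genes and 10.5% of genes with H3K4me3, and an E2F site in the windows of Cdc25a and Ncapd2 (5.88%), against 2.13% and 3.23%. None of the 19 genes with both a window and a MYC peak held the E-box, which shows only that these letters are not in the 300 bases. The E-box was also rare at other genes with H3K4me3 in both genotypes. It was in 11.2% of windows with a MYC peak in KO, 11.0% in WT and 9.90% with neither. The 2 E-box genes, Espl1 at -122 and Ttk at -45, had no MYC peak in either genotype.

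**Figure D1:**
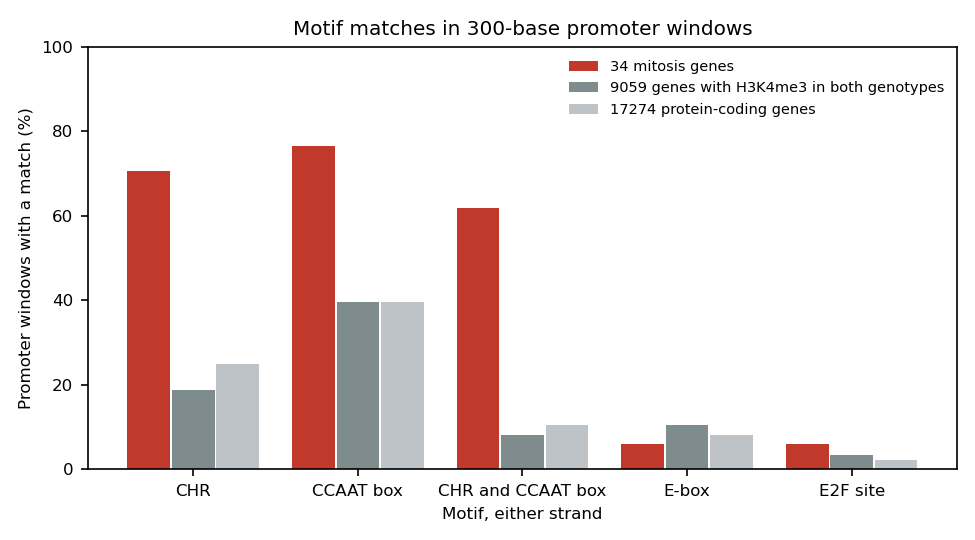
Share of 300-base promoter windows (y axis, %) with at least 1 match on either strand to each motif (x axis), for 34 mitosis genes, 9059 genes with H3K4me3 in both genotypes and 17274 protein-coding genes. The bars of the mitosis genes stand at 70.6% for the CHR and 76.5% for the CCAAT box, above both reference sets, and at 5.88% for the E-box.

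The lists differed in length, and the read depth behind them is unknown. H3K4me3 had 15089 peaks in WT and 16019 in KO, whereas H3K27ac had 10078 and 20036 and MYC had 8774 and 22086. ATAC-seq lists ran from 17303 to 72149 peaks, with the shorter lists in WT 1 and KO 1. Each peak carries a score from the authors' peak caller, of 50 or more and on a scale that is not stated, so scores rank peaks within a list and no change is read from scores of different lists set side by side. Mtor, the targeted gene, had a peak at its lower-coordinate end in all WT libraries and in none of the KO or KO MycHet libraries. Myc had an ATAC-seq peak in all 6 libraries and no MYC peak. Of the HSC markers, 8 of 13 had H3K4me3 in WT and 8 of 13 in KO. Markers of the other blood and stromal lineages had it at between 1 and 3 genes per list of 6 or 7 in WT, and at 0 to 3 in KO, and their part in the results was not tested. A peak in few cells and a weak peak in all cells cannot be told apart in bulk libraries.

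Promoter H3K4me3 and open chromatin were present at the mitosis genes in WT cells. All 43 had an H3K4me3 peak in WT and 42 in KO, against 52.9% and 54.3% of all protein-coding genes. The exception in KO was Smc4. The median score was 548 in WT, against 388 for all genes with a peak in that list, and 544 against 401 in KO. The highest WT scores were those of Kif11 (733), Bub3 (710) and Top2a (693), and the lowest that of Pttg1 (193). In KO, Top2a led with 892, which was rank 64 of the list, and Kif11 was the lowest with 104. KO peaks were wider than WT peaks at 40 of the 42 genes, with a median of 3704.5 bp against 3046 bp, and Cenpe and Top2a were the 2 exceptions. Peaks at gene ends were wider in KO over all genes as well, with medians of 3201 bp and 2643.5 bp.

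ATAC-seq peaks were found at 40 of the 43 genes in all 6 libraries, against 40.0% of all genes. A closer reference is the 11109 protein-coding genes that carried H3K4me3 in WT as well as KO. All 6 libraries had a peak at 8162 of these, and at 39 of the 42 mitosis genes so marked. All 43 genes had a peak in WT 2, KO 2 and both KO MycHet libraries. Those libraries also had one at 97.4% to 98.7% of the 11109 marked genes. The share of marked genes was 80.4% in WT 1 and 79.6% in KO 1. WT 1 had no peak at Ccnb2, Aurkb and Pttg1, and KO 1 none at Ccnb2. These are the 2 shorter lists. Ccnb2, cyclin B2, scored 482 in WT 2, 477 in KO 2, 271 in KO MycHet 1 and 325 in KO MycHet 2. Aurkb scored 334 in WT 2, 61.3 in KO 1, 339 in KO 2, 245 in KO MycHet 1 and 236 in KO MycHet 2. Pttg1 scored 381 in WT 2, 63.1 in KO 1, 451 in KO 2, 295 in KO MycHet 1 and 317 in KO MycHet 2. A WT 1 peak of 88.8 did lie at the annotated start of Pttg1, which is 1482 bp inside the gene's end and so outside the window. No mitosis gene had a peak in both KO libraries and neither WT library, where 0.0277% of all genes did, and none had the reverse, where 0.0231% did. None had a peak in both KO MycHet libraries and neither KO library (0.411% of genes) or in both KO and neither KO MycHet library (0.0416%). Between libraries of the same number, KO 1 but not WT 1 had a peak at 2 genes (Aurkb and Pttg1), where 4.63% of all genes did, and KO 2 but not WT 2 at none, where 1.99% did. Leaving out WT 2 gave 2 genes with a peak in every KO and no WT library (Aurkb and Pttg1), and leaving out KO 2 gave 1 with a peak in every KO MycHet and no KO library (Ccnb2). With 2 libraries against 2, no exact permutation test could give a two-sided p below 0.333, so none was run.

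By median, ATAC-seq scores of the mitosis genes lay above those of all genes with a peak in each library. Medians for genes with H3K4me3, the closer reference, were not computed. The median of the mitosis genes was 164 in WT 1 and 832 in WT 2, where all genes had 138 and 629. It was 142 and 747 in KO 1 and KO 2, where all genes had 129 and 543.5. KO MycHet 1 and 2 had medians of 508 and 606, where all genes had 409 and 455. The order of the genes was similar among the 4 longer lists, with Spearman's rank correlations from 0.86 to 0.92, and less so where WT 1 or KO 1 entered, from 0.56 to 0.78. These correlations describe 40 to 43 genes that share each library's depth. Mad2l1 had the highest score in WT 2 (1601) and KO 1 (414), Ccna2 in KO 2 (1559) and in both KO MycHet libraries (1076 and 1228), and Cenpf in WT 1 (352). Kif2c and Plk1 were lowest in WT 1, at 52.6 and 52.7. The peaks sat on the annotated start, with median midpoints from -86.5 to 51.75 bp from it over the 6 libraries. Away from gene ends, 1 ATAC-seq region inside a mitosis gene was found in all 6 libraries, in Nuf2 (chr1:169517374-169518579, score up to 446), and no histone or MYC peak overlapped it. Regions inside Bub1b and Cenpe were found in 4 libraries each.

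**Figure D2:**
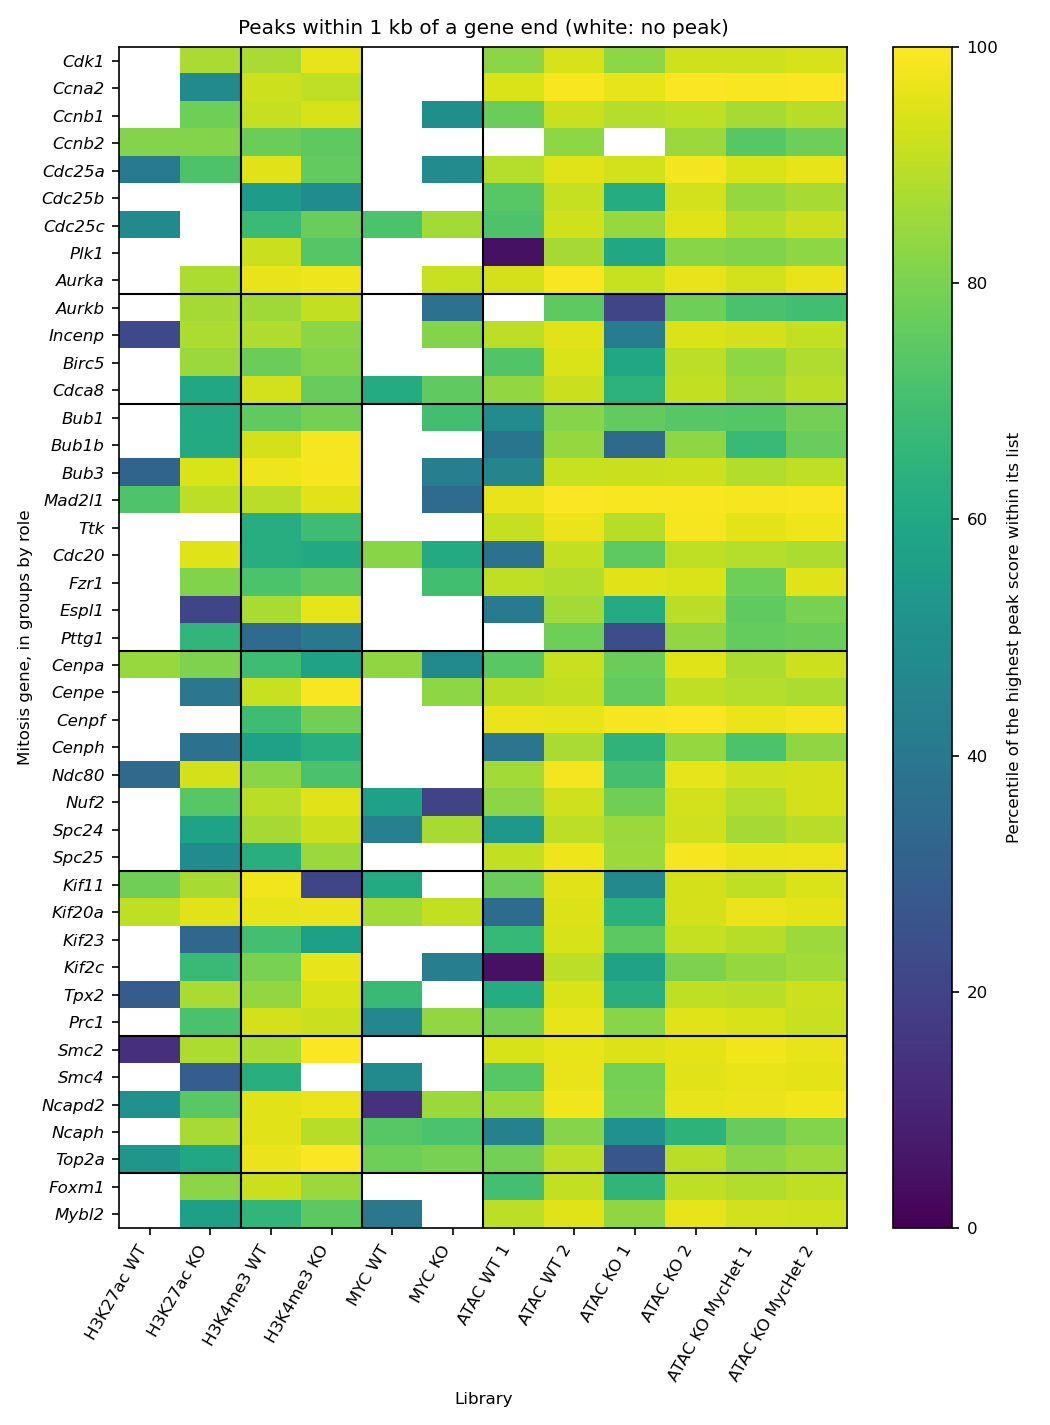
Each row is a mitosis gene, grouped by role with black lines, each column a library, and the colour gives the percentile of the gene's highest-scoring peak within that library's list (white, no peak). The H3K4me3 and ATAC-seq columns are filled almost throughout, the H3K27ac column is filled at 14 genes in WT and 38 in KO, and the MYC column at 15 and 22.

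H3K27ac calls differed between WT and KO at more mitosis genes than H3K4me3 or MYC calls did. A peak was present at 14 of 43 genes in WT and at 38 in KO. In KO alone it was found at 25 genes (58.1%), against 25.8% of all protein-coding genes and 46.7% of genes with H3K4me3 in both genotypes, of which 24 of 42 mitosis genes were KO only. In WT alone it was found at 1 gene, Cdc25c, against 0.767% of all genes and 0.855% of those with H3K4me3. Both libraries had a peak at 13 genes (30.2%), against 13.8% of all genes and 25.8% of those with H3K4me3. Neither had one at 4 genes (9.30%), Cdc25b, Plk1, Ttk and Cenpf, against 59.7% and 26.7%. These calls cover gene ends only. WT had an H3K27ac peak further inside 3 genes called KO only, Aurka (67.9), Cenpe (51.55) and Cenph (54.1). With 1 library per genotype there is no replicate check and no test. Of 8162 genes with H3K4me3 in both genotypes and an ATAC-seq peak in all 6 libraries, 49.9% were KO only, as were 22 of 39 mitosis genes. When the longer KO list was reduced to its 10078 highest scores, 18 mitosis genes (41.9%) were KO only, against 18.4% of all genes. For this list and the next filter, no share of genes with H3K4me3 was computed. Keeping only scores of at least 100 in both lists left H3K27ac in both at 2 mitosis genes (4.65%, against 3.89% of all genes), in KO only at 30 (69.8%, against 27.9%) and in WT only at 0 (against 0.153% of all genes). That filter takes the scores of both lists to be on 1 scale, which was not checked, and KO scores were higher at 96.7% of all genes with a peak in both.

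Where both genotypes had H3K27ac, the KO peak was the wider one. Over the 13 genes with a peak in both, the median width was 415 bp in WT and 2277 bp in KO, with the KO peak wider at all 13. Across the whole lists the median widths were 333 bp and 1237 bp. At the ends of all genes with a peak they were 519 bp in WT and 1847 bp in KO, so KO peaks were wider there as well. The share of all genes with a wider KO peak was not computed. Among genes with a known strand, WT peaks ran from a median of -370.5 to -14 bp, upstream of the start, and 4 of 10 held the start itself. KO peaks ran from -831.5 to 1156.5 bp, and 27 of 30 held it. At Bub3 the WT peak lay from -395 to -191 bp and did not touch the KO peak, which began at -142 bp. At Ndc80, WT had 2 short peaks of 439 and 461 bp, scores 55.0 and 59.97, with the start between them, where KO had 1 peak of 3037 bp and score 369.

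**Figure D3:**
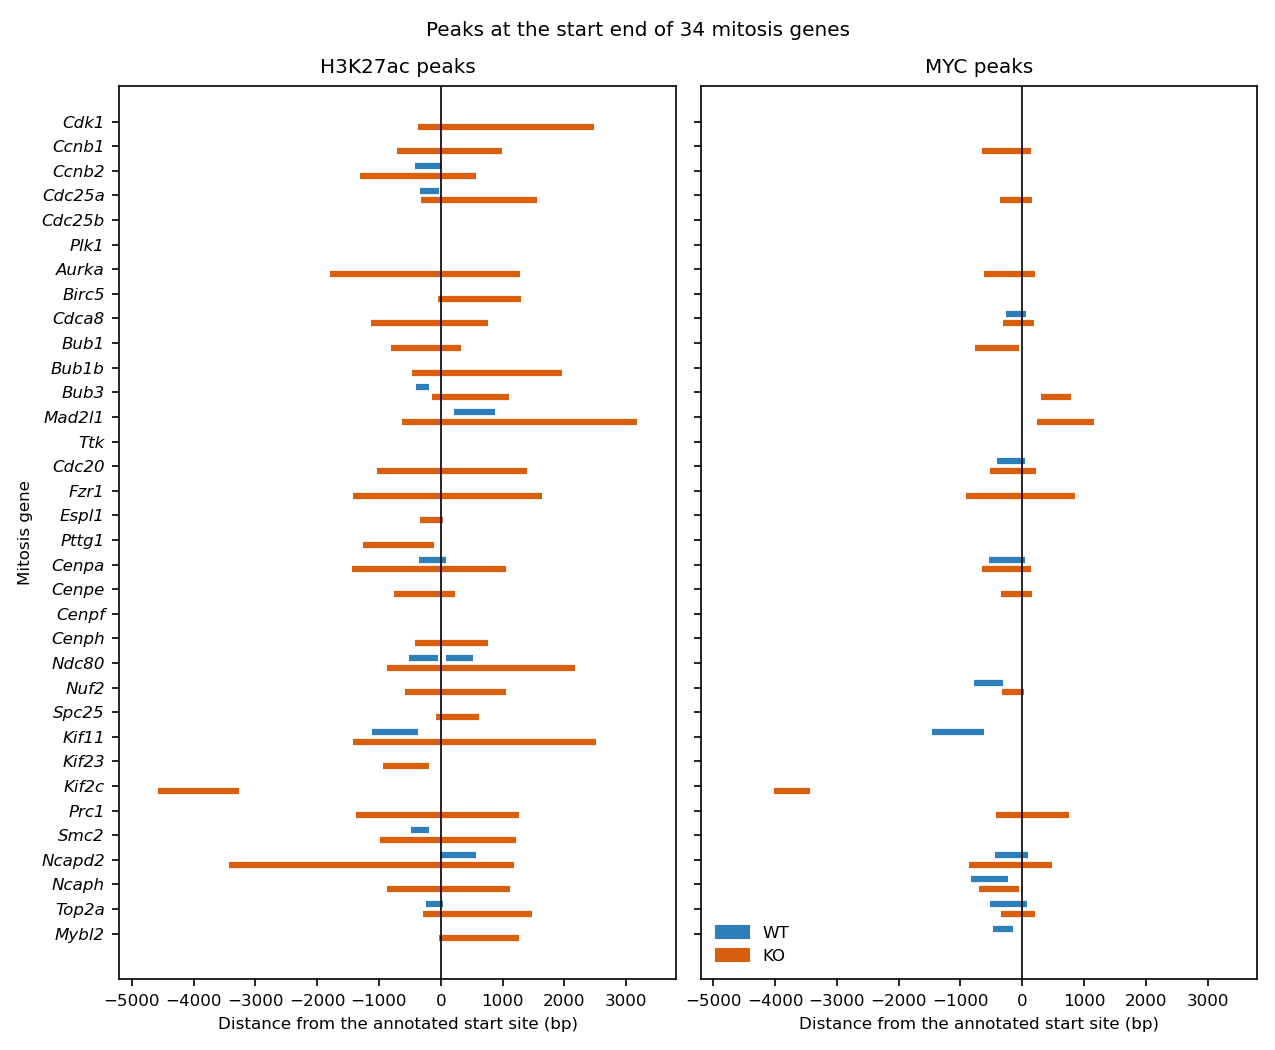
Extent of the H3K27ac (left) and MYC (right) peaks at the start end of 34 mitosis genes, as distance from the annotated start (x axis, bp; negative is upstream), with WT in blue and KO in orange and 1 gene per row. KO H3K27ac peaks reach past the start into the gene at 27 of 30 genes; peaks at the other gene end, such as the WT MYC peak of Prc1, are not drawn, and the start used for Kif2c lies 3852 bp inside the gene's end.

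MYC peaks were present at 15 mitosis genes in WT and 22 in KO. In KO alone they were found at 11 genes (25.6%), against 14.4% of all genes and 24.8% of genes with H3K4me3 in both genotypes, a share near that of other marked genes. In WT alone they were found at 4 genes, Kif11, Tpx2, Smc4 and Mybl2 (9.30%), against 2.35% of all genes. Of genes with H3K4me3 in both genotypes, 3.71% were WT only, as were 3 of the 42 mitosis genes so marked, which leave out Smc4. Both libraries had a MYC peak at 11 genes (25.6%), against 7.93% of all genes and 14.5% of those with H3K4me3. Neither had one at 17 genes (39.5%), against 75.3% and 57.0%. Here too there was 1 library per genotype and no test. With the 8774 highest scores of each list, the KO-only count was 5 (11.6%), against 5.67% of all genes. These were Aurka, Bub1, Cenpe, Fzr1 and Incenp. The WT-only count was 6 (14.0%), against 4.59%, with Cenpa and Nuf2 joining Kif11, Tpx2, Smc4 and Mybl2. As for H3K27ac, no share of genes with H3K4me3 was computed for these lists or the next filter. The filter at 100 left MYC in KO only at 8 genes (18.6%, against 6.17% of all genes), in WT only at 2 (4.65%, against 0.795%) and in both at 2 (4.65%, against 2.01%), and KO scores were higher at 73.5% of all genes with a peak in both.

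All 22 KO MYC peaks overlapped an H3K4me3 peak and 21 overlapped an H3K27ac peak in KO. By the same window rule, 42 of the 43 genes had H3K4me3 in KO and 38 had H3K27ac. A high overlap is therefore likely for any peak at these ends, and its share over all KO MYC peaks was not computed. The 4 genes without H3K27ac in either genotype had no MYC peak, and among genes with H3K4me3 in both genotypes and no H3K27ac, 11.6% had one in KO. Of the 24 marked mitosis genes with H3K27ac in KO only, 13 had a MYC peak in KO, where 39.5% of all such genes did, and of the 13 with H3K27ac in both, 8 did, where 67.5% of all such genes did. MYC peaks overlapped the 300-base promoter window at 14 of 17 genes in KO and 7 of 9 in WT. The nearest MYC peak to a gene end that had none lay at a median of 13621 bp in KO (21 genes) and 54055.5 bp in WT (28 genes). The KO list is the longer one, with 22086 peaks against 8774, which alone shortens such distances. They were not computed for all genes or for lists of equal length. Just outside the window, Kif23 had a KO MYC peak of score 172 at 2125 bp, and Aurkb a WT MYC peak of score 84.8 at 3257 bp. Inside the genes, away from their ends, KO had MYC peaks at Cenph (59.8), Foxm1 (55.8) and Kif11 (53.7), and WT had 0.

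**Figure D4:**
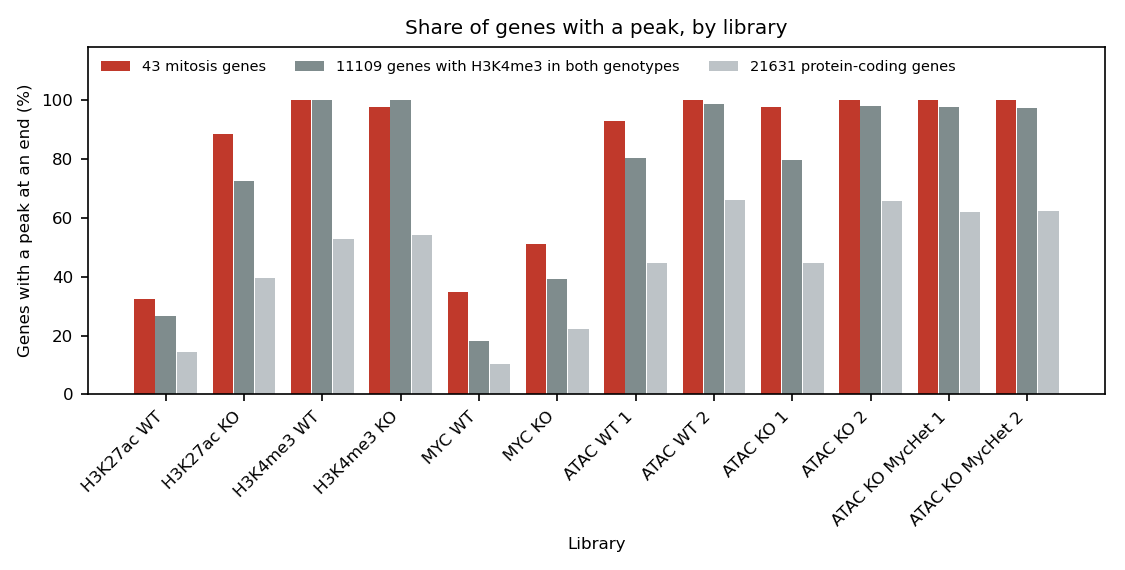
Share of genes with a peak at a gene end (y axis, %) in each library (x axis), for the 43 mitosis genes, 11109 genes with H3K4me3 in both genotypes and 21631 protein-coding genes. For MYC the mitosis genes stand at 34.9% in WT and 51.2% in KO, beside 18.2% and 39.3% of genes with H3K4me3.

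The first role is the kinase switch that opens mitosis. CDK1 is its catalytic subunit, cyclins A2, B1 and B2 (Ccna2, Ccnb1, Ccnb2) activate it, and the CDC25 phosphatases (Cdc25a, Cdc25b, Cdc25c) remove its inhibitory phosphates. PLK1 and Aurora A (Aurka) help to start the switch. Of these 9 genes, 4 had H3K27ac in KO only, where 25.8% of all genes and 46.7% of genes with H3K4me3 in both genotypes did. Cdk1 had a peak of 2861 bp (chr10:69350427-69353287, score 288), Ccnb1 one of score 211, Ccna2 one of 99.1 and Aurka one of 288, the highest of the group. Ccnb2 had H3K27ac at 96.8 in WT and 236 in KO, and Cdc25a at 62.3 and 181. Cdc25c went the other way, with a WT peak of 294 bp and score 65.2 and none in KO. Its H3K4me3 scores were 410 in WT and 478 in KO, and its 6 ATAC-seq scores ran from 146 (WT 1) to 880 (KO 2), so open chromatin was called in every library. Cdc25b and Plk1 had no H3K27ac in either.

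MYC marked a part of the switch genes. Aurka had the highest MYC score of all 43 genes in KO (chr2:172370367-172371192, score 169) and no MYC peak in WT. Its H3K4me3 scores were 680 and 740, the highest of the group in both lists, and its ATAC-seq scores were 280 (WT 1), 1447 (WT 2), 228 (KO 1), 1023 (KO 2), 650 (KO MycHet 1) and 881 (KO MycHet 2). Ccnb1 (72.8) and Cdc25a (71.6) had a MYC peak in KO only, at lower scores. Both scores lie below 82.92, the lowest score left when the KO list was shortened to the length of the WT list. So do the KO MYC scores of Aurkb, Bub3, Mad2l1, Kif2c, Cenpa and Nuf2 given below. Cdc25c had MYC in both, with scores of 89.4 in WT and 136 in KO. Cdk1, Ccna2, Ccnb2, Cdc25b and Plk1 had no MYC peak. Cdk1, whose printed promoter holds 2 CHR and 2 CCAAT matches, had H3K4me3 (548 in WT, 703 in KO) and open chromatin in all 6 libraries, and its nearest MYC peak in KO lay 10457 bp from its ends.

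The chromosomal passenger complex corrects faulty attachments of chromosomes to the spindle. Its kinase is Aurora B (Aurkb), INCENP is its scaffold, and survivin (Birc5) and borealin (Cdca8) place it at the centromere. H3K27ac was KO only at Aurkb (280), Birc5 (265) and Cdca8 (131). Incenp had it at 55.9 in WT and 291 in KO, the highest KO score of the 4. MYC was KO only at Incenp (120, also the highest of the 4) and Aurkb (64.4), in both at Cdca8 (77.5 in WT, 106 in KO), and in neither at Birc5. All 4 had H3K4me3 in both lists, from 473 to 620 in WT and from 476 to 604 in KO, where Aurkb was highest.

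The spindle checkpoint holds anaphase back until every kinetochore is attached. BUB1, BUBR1 (Bub1b), BUB3, MAD2 (Mad2l1) and the kinase MPS1 (Ttk) carry the signal, CDC20 and CDH1 (Fzr1) activate the APC/C, and securin (Pttg1) keeps separase (Espl1) inactive until then. H3K27ac was KO only at 6 of the 9 genes, against 25.8% of all genes and 46.7% of genes with H3K4me3 in both genotypes. Cdc20 had a KO peak of 2434 bp (chr4:118435941-118438374, score 403), the highest of the group, followed by Fzr1 (229), Pttg1 (153), Bub1 (135), Bub1b (134) and Espl1 (62.6). The peak of Espl1 was also the narrowest of all KO members, at 374 bp. Bub3 had H3K27ac at 59.3 in WT and 387 in KO, Mad2l1 at 82.9 and 319, and Ttk in neither. MYC was KO only at Bub1 (95.69), Fzr1 (95.68), Bub3 (67.9) and Mad2l1 (63.2). Cdc20 had MYC in both, at a score of 110 in WT (percentile 82.3 of that list) and 84.0 in KO (percentile 61.2). Bub3 had the highest H3K4me3 score of the group in KO, 794.

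Kinetochores are built on centromeres marked by the histone variant CENP-A (Cenpa). CENP-H (Cenph) belongs to their inner layer, CENP-E and CENP-F (Cenpe, Cenpf) to the outer one, and NDC80, NUF2, SPC24 and SPC25 form the NDC80 complex that grips microtubules. H3K27ac was KO only at Nuf2 (190), Spc24 (125), Spc25 (102), Cenpe (84.8) and Cenph (82.1). Cenpa had it at 105 in WT and 229 in KO, Ndc80 at up to 59.97 and 369, and Cenpf in neither. MYC divided the NDC80 complex: Nuf2 (73.7 in WT, 56.6 in KO) and Spc24 (64.5 and 139) had it in both genotypes, Ndc80 and Spc25 in neither. At Nuf2 the WT peak lay from -785 to -317 bp and the KO peak from -323 to 33 bp, so they touched only at their edges. Cenpa had MYC in both, at 113 in WT and 71.4 in KO. Cenpe had it in KO only (124), beside the highest KO H3K4me3 score of the group (820). Cenpf, with no H3K27ac and no MYC peak, had ATAC-seq scores of 352 (WT 1, the highest of the 43 genes there), 1082 (WT 2), 373 (KO 1), 1553 (KO 2), 850 (KO MycHet 1) and 1020 (KO MycHet 2).

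The spindle proteins were the group in which MYC calls went in both directions, by 1 KO-only gene, Kif2c. With the 8774 highest scores of each list, no spindle gene was KO only. In those lists the kinetochore genes went in both directions, with Cenpe in KO only and Cenpa and Nuf2 in WT only. KIF11 (Eg5) pushes the spindle poles apart, KIF2C shortens microtubules, TPX2 activates Aurora A on the spindle, and KIF20A, KIF23 and PRC1 build the midzone used in cytokinesis. H3K27ac was KO only at Prc1 (176), Kif2c (162) and Kif23 (76.2) and present in both at Kif20a (128 in WT, 419 in KO), Kif11 (90.8 and 282) and Tpx2 (58.2 and 286). Kif20a had the highest H3K27ac score of all 43 genes in both lists, the highest MYC score in WT (122), a KO MYC score of 162, in peaks shared with Brd8, and the highest KO H3K4me3 score of its group (728). MYC was KO only at Kif2c (67.9), at the gene's end, with its midpoint at -3726 bp from the start given in the promoter table. It was WT only at Tpx2 (84.2) and Kif11 (77.0), and the nearest KO MYC peaks lay 8472 and 13621 bp from their ends. A further KO MYC peak (53.7) lay inside Kif11, away from its ends. At Kif11 the WT MYC peak lay from -1462 to -621 bp, beside the WT H3K27ac peak from -1111 to -370 bp. Prc1 had a MYC peak in both lists but at different ends, in KO over the start (127) and in WT at the far end (65.9), 22129.5 bp downstream. Kif23 had none at its ends.

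Kif11 and Smc4 stood apart for H3K4me3. At Kif11 the WT peak was 4190 bp wide with a score of 733 (rank 310 of the list), and the KO peak was 7876 bp wide (chr19:37374135-37382010) with a score of 104 (rank 12666). Over all genes, KO peaks of 6000 bp or more at gene ends (524 peaks) had a median score of 206, against 444 for peaks of 2000 to 4000 bp, and in WT the 200 peaks of that width had 213. Kif11 was the only mitosis gene in that width class in KO. At Smc4, the WT peak was 5942 bp wide (chr3:69002976-69008917, score 380), the widest of the 43, and KO had none. In KO, H3K27ac at Smc4 was a single peak of 6475 bp with a score of 71.8, and the 65 H3K27ac peaks of that width class had a median of 97.6. ATAC-seq at Smc4 scored 153 in WT 1, 1134 in WT 2, 154 in KO 1 and 907 in KO 2. H3K4me3 in WT only was found at this 1 gene of 43, where 1.52% of all genes had it, and in KO only at none, where 2.94% did.

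**Figure D5:**
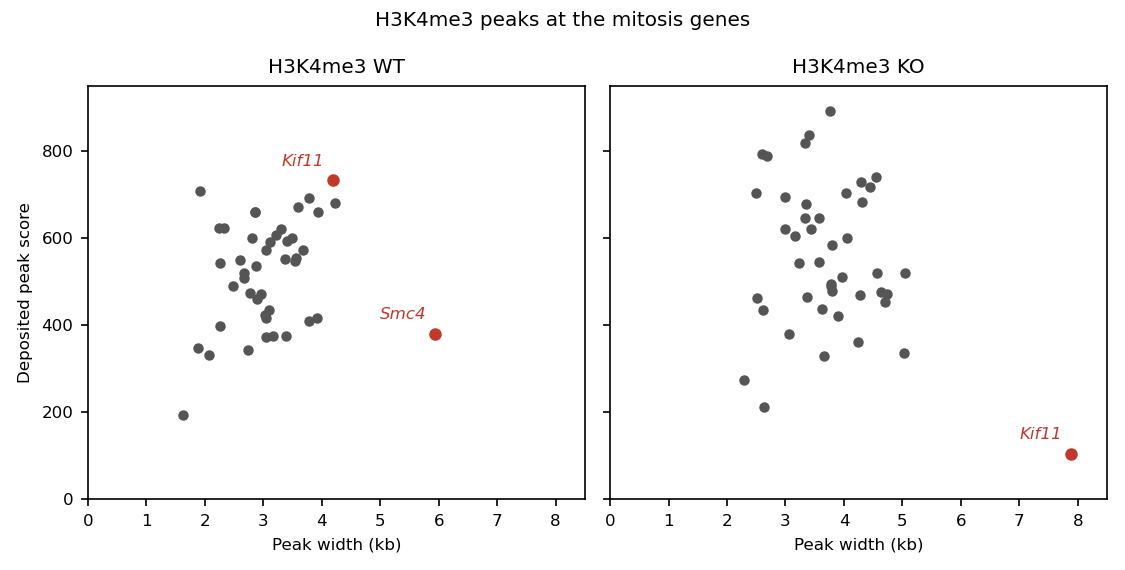
Width (x axis, kb) and deposited score (y axis) of the H3K4me3 peaks at the ends of the mitosis genes. WT is on the left (44 peaks at 43 genes) and KO on the right (44 peaks at 42 genes). Espl1 in both panels and Ncapd2 in KO also have a far-end peak drawn. Kif11 lies at 4190 bp and 733 in WT and alone at the lower right in KO, at 7876 bp and 104, and Smc4 is the widest in WT, at 5942 bp, and has no point in KO.

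Condensin folds chromosomes through its ATPases SMC2 and SMC4 and, in condensin I, the subunits NCAPD2 and NCAPH, and topoisomerase II alpha (Top2a) untangles their DNA. H3K27ac was KO only at Ncaph (283) and Smc4 (71.8). It was in both at Smc2 (53.4 in WT, 291 in KO, the highest of the group), Ncapd2 (66.3 and 192) and Top2a (67.5 and 129). MYC was in both genotypes at 3 of the 5 genes, where 7.93% of all genes and 14.5% of those with H3K4me3 had it. These were Ncapd2 (53.2 in WT, 131 in KO, the highest of the group), Top2a (100.8 and 116) and Ncaph (93.1 and 98.9). Smc4 had a MYC peak in WT only (66.8), and Smc2 none. No gene of this group had MYC in KO only, where 14.4% of all genes and 24.8% of those with H3K4me3 did.

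The last 2 genes encode factors that act on the others. FOXM1 and B-MYB (Mybl2) bind, with MuvB, the CHR promoters of late cell cycle genes. Foxm1 had H3K27ac in KO only (245), H3K4me3 at 601 in WT and 544 in KO, and no MYC peak at its ends. Mybl2 had H3K27ac in KO only (122), H3K4me3 at 397 and 463, and MYC in WT only (chr2:163054157-163054489, score 62.4). The nearest KO MYC peak to Mybl2 was 91300 bp away. Its promoter, printed above, holds none of the exact letters searched for in the 150 bases shown. E2F sites with other letters were not searched for.

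Several of these peaks cannot be given to a mitosis gene alone. For 9 of the 43 genes, every H3K4me3 peak in WT also lay within 1 kb of an end of another protein-coding gene: Aurka with Cstf1, Ccna2 with Bbs7, Cdca8 with 9930104L06Rik, Foxm1 with Rhno1, Kif20a with Brd8, Ncapd2 with Mrpl51, Ndc80 with Spdya, Prc1 with Rccd1 and Smc4 with Ift80. Far-end peaks were shared at Espl1 (Pfdn5), Fzr1 (4930404N11Rik and Mfsd12) and Ncapd2 (Gapdh and Iffo1). Leaving out the 9 genes whose H3K27ac peaks were all shared left H3K27ac in KO only at 19 genes. For MYC, only 5 genes had shared peaks alone. Without them, MYC was KO only at 10 genes, WT only at 3 and in both at 8. The same shares over all genes were not computed. The leading MYC scores of Aurka and Kif20a are both among the shared peaks.

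Other genes of the mitotic machinery were counted in the same way from 7 lists with 119 genes: further APC/C subunits, cohesin, condensin, centromere and kinetochore proteins, spindle and cytokinesis proteins, entry and exit kinases and phosphatases, and MuvB, DREAM and E2F factors. H3K27ac was present at 45 in WT and 106 in KO, with 61 (51.3%) in KO only, against 25.8% of all genes and 46.7% of those with H3K4me3, and none in WT only, against 0.767% of all genes. The highest KO-only scores were at Sgo1 (544), the shugoshin that protects centromeric cohesion, Ppp2r2d (389, shared with Mapk1ip1) and Cdca5 (367, shared with Zfpl1), known as sororin. H3K4me3 was present at 113 and 111. It was KO only at Rad21 (494), a cohesin subunit, which is 0.840% of the 119 genes against 2.94% of all genes. It was WT only at Cenpl (490), Cks2 (341) and Lin37 (83.8), or 2.52% against 1.52%. MYC was present at 34 in WT and 62 in KO. It was KO only at 29 (24.4%), against 14.4% of all genes and 24.8% of those with H3K4me3. The highest KO-only scores were at Cenpq (161, shared with Mmut), Anapc13 (129, shared with Cep63) and Ube2c (124), the APC/C's ubiquitin-conjugating enzyme. MYC was WT only at Anapc1 (52.7), or 0.840% against 2.35% of all genes.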

How the data were processed

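The 12 peak lists were used as deposited, 1 per library, so peaks had been called per sample. Each score was deposited by the authors beside a MACS-style peak name. The build, mm10, and the tool CASAVA come from the submitters' processing notes. Not given in the sources used here were the aligner, the caller's version and settings, input controls and the shift of ATAC-seq reads. Lists hold no reads, so depth is unknown and no interval was computed. Chromosomes 1 to 19 and X were used, which left out 13 to 113 peaks per list on Y.

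Gene ends came from a RefSeq table of GRCm38.p6 without strand, which the RefSeq promoter table gave for 34 of 43 genes. Genes were KO only with at least 1 KO peak and no WT peak within 1 kb of either end. Matching was tested on simulated intervals and checked against bedtools 2.31.1 (Python 3.11.15, pandas 2.3.3). The genes, lists and motifs were chosen with earlier results of these data known. Values are in full for genes whose calls differ or with MYC in both genotypes, and the 3 leading genes per call are named from other lists. No test was run.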

Additional observations from a re-analysis of the deposited data

How the results depend on the processing

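Of 116 alternative counts, 104 stayed within 1.5 times the reported count and 12 did not. A score of at least 100 in both lists left H3K27ac in both at 2 genes and in WT only at 0, and MYC in both at 2 and in WT only at 2. Counting only the start end, over the 34 genes with a strand, gave 0 for H3K27ac and 0 for H3K4me3 in WT only, and 2 for MYC in WT only and 7 in both; fewer genes were counted. Leaving out the 9 genes whose peaks are all shared gave 0 for H3K4me3 in WT only, since Smc4 is among them. Lists of equal length gave 5 for MYC in KO only. H3K27ac in KO only ranged from 18 to 30. For ATAC-seq, genes in every KO and no WT library numbered 0 to 2 when 1 library was left out (2 without WT 2: Aurkb and Pttg1), and genes in every KO MycHet and no KO library 0 to 1 (1 without KO 2: Ccnb2). Calls counted within replicate numbers (a replicate block added after the data were seen, as the labels do not say that a number pairs libraries) gave 0 genes in both pairs for all 4 ATAC-seq calls; no test could be blocked, since none was run. Depth limits every count: a missing peak is one not called at an unknown depth.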
